A study of Homo sapiens with 48 samples.

Results

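The HSP70 genes described here are 9 genes named for the cytosolic branch of the family: HSPA1A, HSPA1B, HSPA1L, HSPA2, HSPA6, HSPA8, HSPA12A, HSPA13 and HSPA14. They were chosen by symbol from a deposited table of 33892 rows of raw read counts, and the 4 rows of HSPA1A and the 4 of HSPA1B, which differ by a numeric suffix, were added up per gene. Counts came from 48 RNA-seq libraries of 8 established human cancer cell lines, each given DMSO, the solvent control, or carfilzomib, an irreversible inhibitor of the proteasome. Drug exposure lasted 24 h at a concentration set per line to the IC50 for proteasome activity, with 3 biological replicates in all 16 groups, as the labels state. Per the labels the lines come from colon cancer (RKO, DLD-1), lung cancer (H-23, H-1299), pancreatic cancer (PANC-1, CAPAN-2) and multiple myeloma (H-929, RPMI). All groups were grown as flat cultures by standard protocols. The concentrations themselves are not used here, so lines differ in dose as well as in origin.

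HSP70 proteins bind exposed stretches of unfolded proteins and release them in a cycle driven by ATP. J-domain proteins start the cycle by bringing clients and stimulating ATP hydrolysis, and nucleotide exchange factors end it by letting ADP go. Some family members are made at all times and serve everyday folding, while others are transcribed mainly when misfolded proteins build up and heat shock factor 1 binds the heat shock elements of their promoters. Blocking the proteasome is a standard way to build up such proteins.

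HSPA1A, HSPA1B and HSPA6 are the inducible members by textbook knowledge. HSPA8 (HSC70) is the main constitutive member, HSPA2 and HSPA1L are best known from the testis, and HSPA14 works with J-domain proteins at the ribosome. HSPA12A is a distant relative with an atypical ATPase domain. HSPA13 is known from microsomes, so its place in a cytosolic group is by name and not by location.

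Totals per library ran from 9.12 to 64.4 M (mega) counts. In DMSO, all 6 plasma cell markers on the list reached 1 CPM (read counts scaled to a common library total of 1 M) in both myeloma lines and 3 or 4 of them in each other line, and all 4 pancreatic duct markers did in both pancreatic lines. The lung line H-23 also had all 4 duct markers at that level, and DLD-1 had 3, with a summed level of 874 to 1102 CPM against 965 to 1004 in PANC-1. Of the 6 colon markers, DLD-1 had 3 at 1 CPM or more, as did CAPAN-2, and RKO had 1 (CDX2). Of the 3 lung markers in the table, H-23 had 2 and H-1299 had none. H-1299 was also below 1 CPM for the epithelial genes EPCAM and CDH1. The summed level of the lung markers was highest in the myeloma line H-929, at 40.4 to 44 CPM, against 3.44 to 4.3 in H-23. Only NAPSA reached 1 CPM in H-929, and no lung marker did in RPMI. All 4 general epithelial markers reached 1 CPM in RPMI, with a sum of 221 to 227 CPM, and 1 did in H-929. The plasma cell list thus set the myeloma lines apart, but the lung and epithelial lists did not. These lists did not tell the colon, lung and pancreatic lines apart, so the tissue of those 6 lines rests on the labels. All CPM values below are relative to the library total after TMM scaling over the 48 libraries.

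Promoters are shown for HSPA1A, HSPA1B, HSPA6, HSPA8 and HSPA2. The heat shock element was searched in the 250 bases before the RefSeq start (GRCh38.p14), as 3 alternating units (GAANNTTCNNGAA or TTCNNGAANNTTC) and as 2 units (GAANNTTC or TTCNNGAA). Each pair of patterns is its own reverse complement, so both strands are covered, and every match of 3 units holds matches of 2. RefSeq promoters were found for 8 of the 9 members, and HSPA14 had none. Of 35116 promoters in the same table, 155 (0.441%) held 3 units and 4067 (11.6%) held 2. The 150 bases before the start are printed 5′ to 3′ with matches in capitals.
HSPA1A (chr6:31815393-31815542, plus strand): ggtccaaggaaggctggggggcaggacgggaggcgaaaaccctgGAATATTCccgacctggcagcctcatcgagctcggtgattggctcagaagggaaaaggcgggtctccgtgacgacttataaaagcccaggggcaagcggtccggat
HSPA1B (chr6:31827588-31827737, plus strand): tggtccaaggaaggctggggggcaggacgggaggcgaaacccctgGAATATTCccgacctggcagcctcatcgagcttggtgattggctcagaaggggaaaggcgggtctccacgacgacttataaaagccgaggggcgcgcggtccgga
HSPA6 (chr1:161524390-161524539, plus strand): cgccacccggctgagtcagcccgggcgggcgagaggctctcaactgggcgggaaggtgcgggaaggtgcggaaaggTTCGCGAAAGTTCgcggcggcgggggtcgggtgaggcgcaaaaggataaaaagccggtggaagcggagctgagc
HSPA8 (chr11:123062137-123062286, minus strand): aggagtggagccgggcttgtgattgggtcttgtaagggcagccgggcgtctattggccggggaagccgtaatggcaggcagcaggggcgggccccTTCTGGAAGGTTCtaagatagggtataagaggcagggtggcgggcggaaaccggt
HSPA2 (chr14:64540591-64540740, plus strand): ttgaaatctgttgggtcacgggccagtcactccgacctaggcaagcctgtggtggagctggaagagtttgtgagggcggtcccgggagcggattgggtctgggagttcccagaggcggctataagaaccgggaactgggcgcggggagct

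HSPA6 and HSPA8 were the members with 3 units in the window searched. With positions counted back from the start, those of HSPA6 lay at -74 to -62. HSPA8 had one match at -55 to -43 and another at -230 to -218, outside the bases printed. HSPA1A and HSPA1B each had 1 match of 2 units, and their promoters were identical at 141 of 149 aligned bases (94.6%). HSPA1L lies next to HSPA1A on the opposite strand, and its single match of 2 units is the same run of bases as that of HSPA1A (chr6:31815437-31815444). HSPA2, HSPA12A and HSPA13 had no match of either kind in this window. A match is a run of letters and does not show binding.

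The first comparison was carfilzomib against DMSO within a line, tested by quasi-likelihood in edgeR. The inducible genes had the largest rises: HSPA6 was higher in the 7 lines with enough counts for a test and the sum of HSPA1A and HSPA1B in 5 of 8. HSPA8 was higher in 4 lines and lower in 3, HSPA13 higher in 4 and lower in 4, and HSPA14 higher in 4 and lower in 1. HSPA12A was higher in 5 lines and HSPA2 higher in 3 and lower in 2. Of the 72 pairs of a member and a line, 61 passed the filter on low counts, and 37 of these were called higher and 10 lower. A member with few DMSO counts could pass through its carfilzomib libraries alone, so being tested and being called higher were not independent. Over all genes and lines, 20.8% of tests were called higher and 21.1% lower.

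H-1299, RPMI and CAPAN-2 had the most members higher. HSPA1A and HSPA1B count as 2 members here, both higher in the same 5 lines, although the division of reads between them is uncertain. In H-1299 all 8 members tested were higher, in RPMI 7 of 8, and in CAPAN-2 7 of 8 with 1 lower. In H-1299 and RPMI 0 were lower in edgeR, also at an unadjusted p under 0.05, and 0 in DESeq2. Of all genes tested, 29.8% were higher and 31.3% lower in H-1299, 31.3% and 32.2% in RPMI, and 25.7% and 26.8% in CAPAN-2. In H-929, 5 of 8 members were higher and 2 lower, against 26.2% and 26.6% of all genes. HSPA1A and HSPA1B there, and HSPA1A in RPMI, had at most 10 counts in any DMSO library and passed the filter through carfilzomib libraries. In H-23, 5 of 8 members were higher and 1 lower, against 17.7% and 16.2%. PANC-1 had 3 members higher and 2 lower of 8, against 20.5% and 18.2%, and DLD-1 had 2 higher and 2 lower of 8, against 10.9% and 12.1%. In RKO none of the 5 members tested was higher and 2 were lower, against 3.61% and 5.28% of all genes, and 0 members were higher in RKO also at an unadjusted p under 0.05 in edgeR and at the adjusted threshold in DESeq2.

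**Figure D1:**
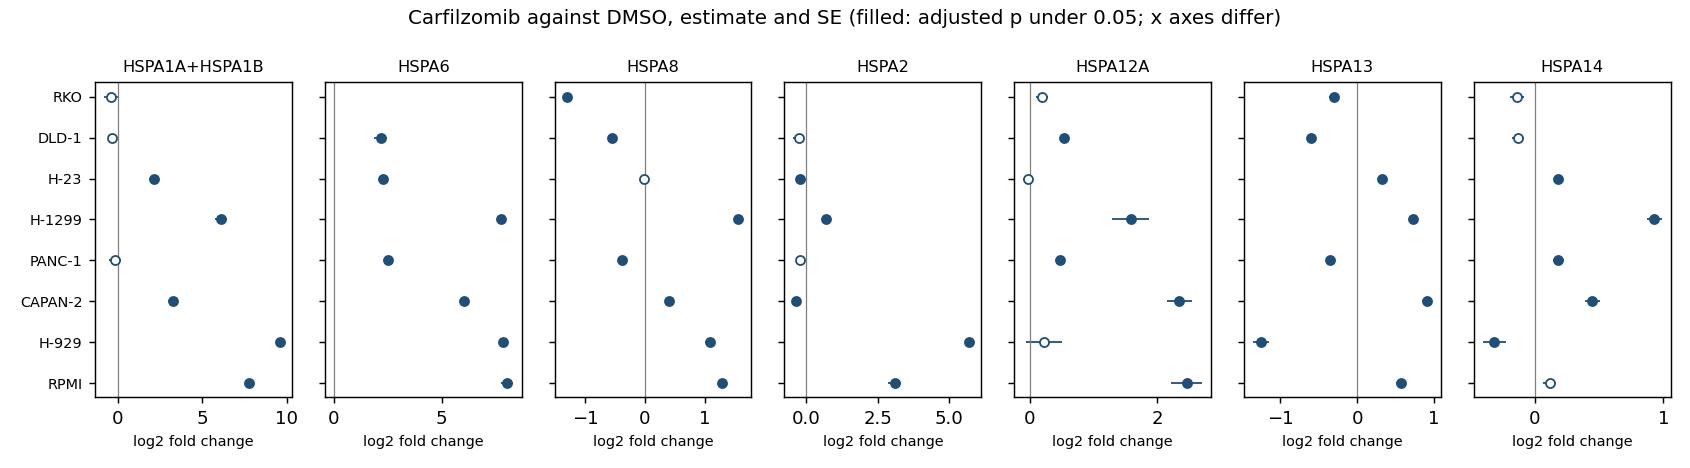
Log2 fold change of carfilzomib against DMSO for each member (HSPA1A and HSPA1B as their sum), 1 panel per member with its own x axis and 1 row per line. Points are edgeR estimates from 3 against 3 libraries, bars are standard errors, and filled points have an adjusted p under 0.05. HSPA6 lies to the right of 0 in every line shown, and HSPA8 runs from -1.30 in RKO to 1.56 in H-1299.

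HSPA1A and HSPA1B, neighbours on chromosome 6, encode the same inducible protein, and they were first taken as their sum. In H-929 the 3 DMSO libraries held 0.369, 0.939 and 0.363 CPM of the sum and the carfilzomib libraries 357, 452 and 408. In RPMI it was 1.29, 3.77 and 2.50 CPM in DMSO and 436, 582 and 609 in carfilzomib. In H-1299 it was 8.77, 5.73 and 7.53 CPM against 545, 737 and 230.3. The groups did not overlap in these 3 lines, and the carfilzomib libraries of H-1299 spread over a wider range than those of either myeloma line. H-929, the line with the lowest DMSO level of the sum, was thus among the 3 lines with the highest level after carfilzomib.

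The rise was smaller in CAPAN-2 and H-23. CAPAN-2 had 4.60, 1.84 and 3.24 CPM of the sum in DMSO and 46.6, 23.9 and 24.8 in carfilzomib. H-23 had 5.70, 5.95 and 5.24 CPM against 12.7, 22.5 and 36.3. Groups did not overlap in either line, but the highest carfilzomib library of H-23 held several times more than its lowest. By edgeR the log2 fold changes were 2.13 ± 0.25 (SE) in H-23 and 3.26 ± 0.28 in CAPAN-2, against 6.14 ± 0.36 in H-1299, 7.75 ± 0.19 in RPMI and 9.60 ± 0.19 in H-929, and the adjusted p lay between 1.8e-05 (H-23) and 1.6e-13 (H-929).

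DLD-1, PANC-1 and RKO showed no call for the sum. In DLD-1 the libraries held 5.46, 4.73 and 4.79 CPM in DMSO and 4.23, 4.10 and 3.36 in carfilzomib (log2 fold change -0.35 ± 0.14, adjusted p in edgeR 0.0931). PANC-1 had 12.9, 3.36 and 5.23 CPM against 7.48, 6.66 and 5.18 (-0.14 ± 0.35, adjusted p in edgeR 0.788). RKO had 1.28, 1.55 and 2.08 CPM against 0.972, 1.97 and 0.846 (-0.40 ± 0.40, adjusted p in edgeR 0.606), from 15 to 50 counts per library. The carfilzomib values of DLD-1 all lay below its DMSO values, while the groups overlapped in PANC-1 and RKO. In PANC-1, DMSO replicate 1 set the direction: without it the log2 fold change was 0.59 and passed the threshold (adjusted p in edgeR 0.0366).

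**Figure D2:**
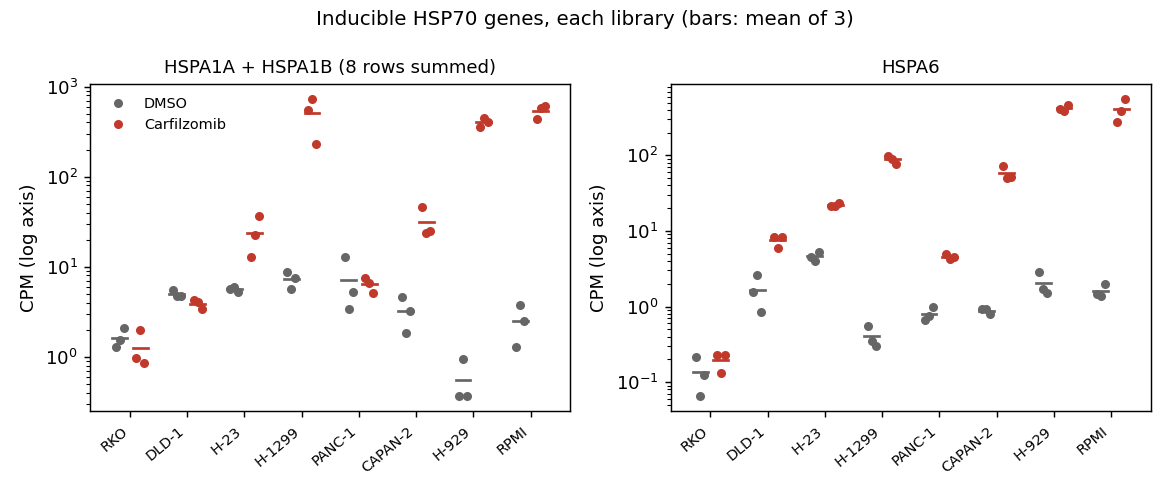
CPM of the sum of HSPA1A and HSPA1B (left) and of HSPA6 (right) in each library, on log axes, with DMSO in grey and carfilzomib in red and a bar at the mean of 3 libraries. The red and grey points of the sum lie at like heights in RKO, DLD-1 and PANC-1 and far apart in H-929 and RPMI, whereas those of HSPA6 are apart in every line but RKO.

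Taken singly, HSPA1A and HSPA1B were higher in the same 5 lines as their sum. HSPA1A had the larger log2 fold change in each of the 5, from 3.53 ± 0.63 in H-23 to 11.12 ± 0.36 in H-929, against 1.73 ± 0.16 and 8.32 ± 0.34 for HSPA1B. The value for HSPA1A in H-929 rests on DMSO libraries with 0, 6 and 0 counts, against 2407, 3523 and 2138 after carfilzomib. In DMSO, HSPA1A was below 4 CPM in every library. Whether that level was called different between the lines turned on the setting of the joint edgeR fit. It was not called as fitted (F = 1.82, adjusted p 0.110), but it was without a filter on low counts (adjusted p 0.0179), with the replicate block (0.00276), with tagwise dispersion (0.0016), without H-23 (0.0371) and without PANC-1 (0.0470).

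The division of reads between the pair is uncertain. Of the windows of 50 bases in the longest HSPA1A transcript of GENCODE release 29, 72.6% occur unchanged in HSPA1B, and 71.4% the other way round. In the deposited table the rows without a suffix held 0.159% (HSPA1A) and 0.147% (HSPA1B) of the counts of the pair, while HSPA1B-4 held 27.5%, HSPA1A-4 25.7% and HSPA1A-3 17.3%. All 4 rows of a gene carry 1 identifier, ENSG00000237724 for HSPA1A and ENSG00000232804 for HSPA1B, which GENCODE 29 does not give to these genes on chromosome 6 (ENSG00000204389 and ENSG00000204388). All values of the pair rest on these identifiers alone, and HSPA1L is likewise read under another identifier (ENSG00000236251). Whether these rows hold all reads of the genes, or only reads assigned to other copies of the locus such as alternate haplotypes, was not tested, so the CPM of the pair may cover part of its reads and its level against other genes is uncertain.

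Replicates also divided the counts differently. In carfilzomib replicates 1, 2 and 3 of H-929, the row HSPA1A-3 held 333, 2828 and 571 counts, while the sum of all rows held 3646, 4355 and 3906. HSPA1A-4 held 2006, 655 and 1510 counts in the same libraries. In H-1299, HSPA1A-2 held 31, 2750 and 252 counts and HSPA1A-3 held 3093, 5908 and 137. Single rows thus varied between replicates far more than the sum, and the share of HSPA1A in the sum was 66.0%, 80.9% and 54.7% in H-929. With the rows without a suffix alone, 3 members instead of 5 were called higher in H-23. Other lines depend on the rows with a suffix too. The plain row of HSPA1A was 0 in every library of CAPAN-2, and that of HSPA1B held 0, 2 and 0 counts in carfilzomib in H-1299.

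**Figure D3:**
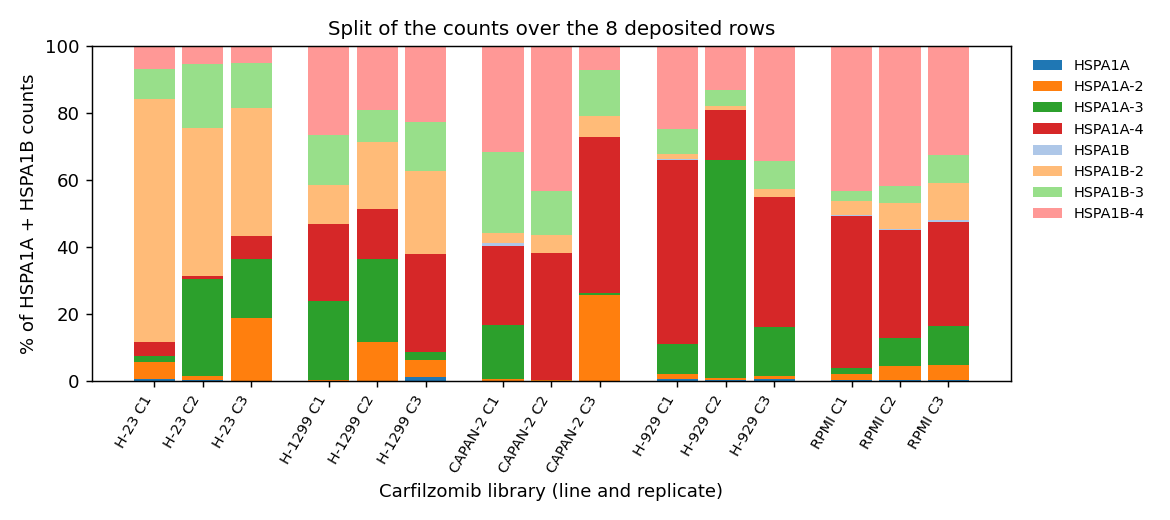
Share of the HSPA1A and HSPA1B counts held by each of the 8 deposited rows, in percent, in the 15 carfilzomib libraries of the 5 lines where the sum rose, 1 stacked bar per library. HSPA1A-3 takes the largest part of H-929 replicate 2, where it holds 2828 of 4355 counts, and a small part of replicates 1 and 3.

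HSPA6 (chr1:161524540-161526910), which codes for a strictly stress-inducible HSP70, started from low levels. In RPMI it went from 1.48, 1.39 and 2.00 CPM in DMSO to 279.5, 387 and 566 in carfilzomib. In H-929 it went from 2.89, 1.70 and 1.53 to 417, 389.8 and 461 CPM. In H-1299 it went from 0.553, 0.355 and 0.304 to 98.9, 89.9 and 76.2 CPM. Groups were far apart in all 3 lines, with log2 fold changes of 8.02 ± 0.28, 7.83 ± 0.16 and 7.75 ± 0.15 (adjusted p in edgeR at most 4.4e-11). The level reached in H-1299 was well below that in the myeloma lines.

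CAPAN-2 followed, with 0.931, 0.920 and 0.787 CPM of HSPA6 in DMSO and 71.7, 49.8 and 52.3 after carfilzomib, a log2 fold change of 6.03 ± 0.17. H-23 had the highest DMSO level of the 8 lines, 4.49, 4.0 and 5.31 CPM, and reached 21.4, 21.5 and 23.6. DLD-1 went from 1.58, 2.58 and 0.845 to 8.21, 6.04 and 8.33 CPM. PANC-1 and DLD-1 are the lines where HSPA6 rose without a call for the sum of HSPA1A and HSPA1B. PANC-1 went from 0.673, 0.740 and 0.981 to 4.90, 4.26 and 4.48 CPM. The log2 fold changes were 2.28 ± 0.098 in H-23, 2.18 ± 0.30 in DLD-1 and 2.50 ± 0.18 in PANC-1 (adjusted p in edgeR at most 5.8e-04), and the groups overlapped in none of them.

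RKO had 1 to 4 counts of HSPA6 in each library, 0.0645 to 0.213 CPM in DMSO and 0.131 to 0.229 in carfilzomib. A small change cannot be read from so few counts. The mean after carfilzomib was 0.195 CPM, against 4.55 in PANC-1, the next lowest line, and the ranges did not overlap. RKO thus did not reach the carfilzomib level of any other line. Of 13171 genes tested in at least 7 lines, 161 (1.22%) were called higher in at least 7, as HSPA6 was. Reads of HSPA6 and of the pseudogene HSPA7 may be exchanged, since 45.5% of the windows of 50 bases in HSPA6 occur in HSPA7. HSPA7 held 0, 0 and 0 counts in DMSO and 72, 75 and 103 in carfilzomib in H-929, where HSPA6 held 4255, 3754 and 4419.

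HSPA1L, beside HSPA1A on the opposite strand, was tested in no line. Its row without a suffix was 0 in all 48 libraries, where a count of 0 allows up to 3 counts per library. Its row HSPA1L-2 held 158 counts over all libraries and at most 17 in one. Over its 4 rows H-929 had 0, 0 and 0 counts in DMSO and 6, 5 and 2 in carfilzomib. In H-1299 there were 17, 16 and 6 counts in DMSO and 9, 16 and 14 in carfilzomib, and RPMI and CAPAN-2 had none. These counts are too few for a comparison, and 2.44% of the windows of HSPA1L are shared with HSPA1A.

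HSPA8 (chr11:123057489-123063230), which encodes the constitutive HSC70, was the most abundant member per kilobase of exon in every library. H-1299 had 3876, 4841 and 3952 CPM in DMSO and 11964, 12194 and 11514 in carfilzomib. RPMI had 3125, 3296 and 3608 against 6885, 8379 and 7998 CPM. H-929 had 3501, 3833 and 3608 against 8003, 6674 and 6315 CPM. The carfilzomib libraries lay above every DMSO library in these lines, and the log2 fold changes were 1.56 ± 0.071, 1.29 ± 0.067 and 1.09 ± 0.083 (adjusted p in edgeR at most 1.1e-07). CAPAN-2 rose less, from 2115, 2240.3 and 1965 to 3111, 2779 and 2615 CPM (0.41 ± 0.067, adjusted p in edgeR 1.3e-04).

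HSPA8 fell in RKO, DLD-1 and PANC-1, the 3 lines with no call for the sum of HSPA1A and HSPA1B. In RKO it went from 981, 1146 and 1190.5 CPM in DMSO to 470.4, 456 and 423 in carfilzomib. In DLD-1 it went from 2157, 2102 and 2084 to 1531, 1442 and 1331 CPM. In PANC-1 it went from 2095, 2034 and 2089 to 1489.9, 1605 and 1642 CPM. Groups did not overlap, and the log2 fold changes were -1.30 ± 0.061, -0.55 ± 0.047 and -0.39 ± 0.034 (adjusted p in edgeR at most 2.7e-05). In H-23 the groups overlapped, with 2145, 1909 and 2192 CPM against 1967, 2055 and 2048 (-0.02 ± 0.036, adjusted p 0.740). CPM are shares of a library, so a lower share of cells with the transcript and less transcript per cell cannot be told apart.

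**Figure D4:**
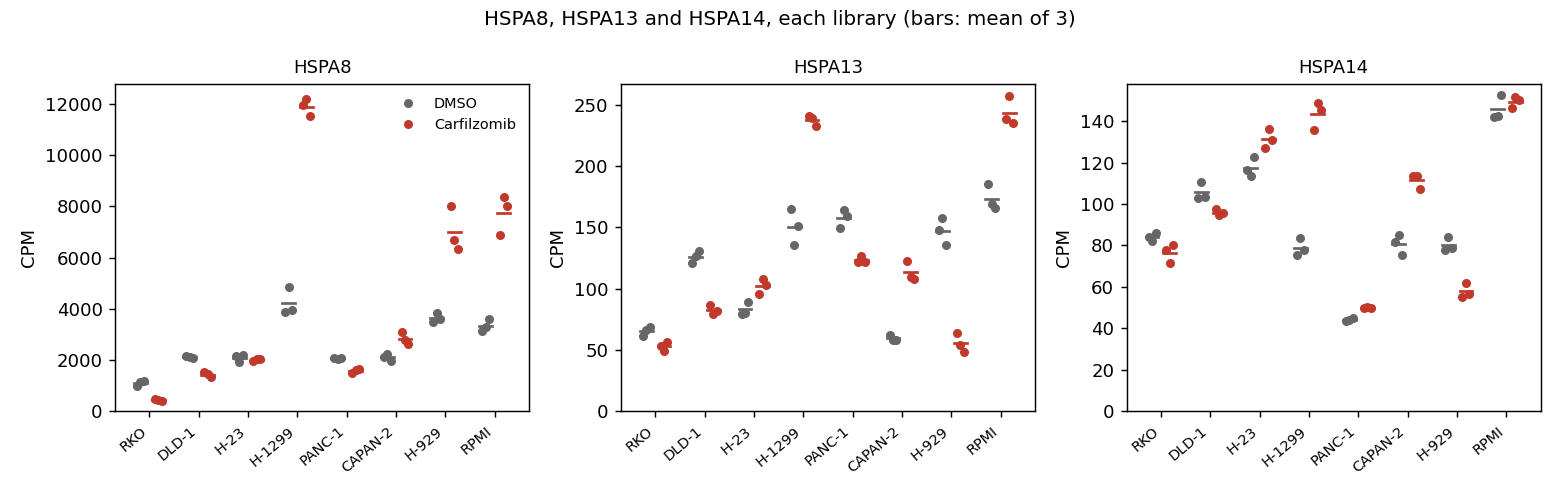
CPM of HSPA8, HSPA13 and HSPA14 in each library on linear axes from 0, with DMSO in grey, carfilzomib in red and a bar at the mean of 3 libraries. The red points of HSPA8 lie above the grey in CAPAN-2, H-1299, RPMI and H-929 and below in RKO, DLD-1 and PANC-1, and those of HSPA13 lie below the grey also in H-929.

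Unexposed lines also differed in HSPA8 (joint edgeR fit, F = 109, adjusted p 4.0e-25), as did 97.6% of all genes. The mean DMSO level was 4223 ± 536 CPM (SD, n = 3) in H-1299, 3648 ± 169 in H-929 and 3343 ± 245 in RPMI. DLD-1, CAPAN-2, H-23 and PANC-1 lay between 2114 and 2073 CPM with ranges that overlapped from each line to the next, and RKO was lowest at 1106 ± 110. The 3 lines with the highest DMSO level of HSPA8 were also those with its largest rises, and RKO had both its lowest level and its largest fall. The level and the change share the DMSO libraries.

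HSPA2 (chr14:64535905-64546173) moved most in the myeloma lines. In H-929 it went from 7.26, 6.28 and 8.57 CPM in DMSO to 328, 304 and 375 in carfilzomib. In RPMI it went from 1.35, 0.874 and 1.16 to 7.48, 9.84 and 9.67 CPM. In H-1299 it went from 21.9, 24.7 and 21.9 to 35, 36.7 and 32.6 CPM. Groups did not overlap in any of the 3 lines, and the log2 fold changes were 5.67 ± 0.13, 3.09 ± 0.22 and 0.68 ± 0.075 (adjusted p in edgeR at most 4.4e-06).

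The level of HSPA2 reached in H-929 exceeded that of CAPAN-2, the line with its highest level in DMSO. CAPAN-2 fell from 96.4, 86.9 and 89.3 to 79.5, 70.3 and 67.9 CPM (-0.34 ± 0.068, adjusted p in edgeR 7.1e-04). H-23 fell from 41.6, 43.9 and 45.7 to 37.3, 35 and 39.2 CPM (-0.21 ± 0.054, adjusted p in edgeR 0.00707), a call lost when all 48 libraries shared 1 fit (adjusted p 0.0592). DLD-1 (-0.25 ± 0.19) and PANC-1 (-0.23 ± 0.088) had no call, with adjusted p in edgeR of 0.392 and 0.0538. The PANC-1 value passed the threshold as lower with library totals (adjusted p 0.0494), without a filter (0.0444), with a mean of at least 50 counts (0.0487), with the replicate block (0.0211) and without carfilzomib replicate 1 (0.0132). With 1 to 5 counts in each library, RKO was not tested. In DMSO, HSPA2 ran from 90.9 CPM in CAPAN-2 to 0.169 in RKO, and no line overlapped with the next. Whether strand was used in counting is not given in the sources used here, so reads of HSPA2 and of antisense transcripts at the locus cannot be told apart.

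HSPA12A (chr10:116671192-116850236) was in DMSO highest in the 4 lines where the sum of HSPA1A and HSPA1B changed least. Of these, H-23, DLD-1 and PANC-1 also had the smallest changes of HSPA6, which was not tested in RKO. Its DMSO level was 31.3 ± 4.65 CPM (SD, n = 3) in RKO, 20.3 ± 1.75 in H-23, 17 ± 0.471 in DLD-1 and 13.2 ± 0.729 in PANC-1. In CAPAN-2, RPMI and H-1299 it was 1.23, 0.983 and 0.963 CPM, with ranges that overlapped. The rises of HSPA12A were largest in these lines with low levels, and level and change share the DMSO libraries. RPMI went from 0.902, 0.953 and 1.09 to 5.85, 5.52 and 4.29 CPM, a log2 fold change of 2.47 ± 0.24. CAPAN-2 went from 0.959, 1.46 and 1.27 to 5.85, 6.72 and 6.48 CPM (2.35 ± 0.20), and H-1299 from 0.830, 0.792 and 1.27 to 3.48, 2.89 and 1.86 (1.59 ± 0.29).

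Smaller rises of HSPA12A were called in DLD-1 (0.53 ± 0.063) and PANC-1 (0.48 ± 0.069), and the adjusted p in edgeR over the 5 calls was at most 3.9e-04. RKO (0.19 ± 0.095), H-23 (-0.03 ± 0.075) and H-929 (0.22 ± 0.28) had no call, with adjusted p of 0.265, 0.792 and 0.536 in edgeR, and groups overlapped in all 3. H-929, where the sum of HSPA1A and HSPA1B had its largest fold change, held 5.91, 6.45 and 4.65 CPM of HSPA12A in DMSO and 5.68, 7.68 and 4.49 in carfilzomib.

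**Figure D5:**
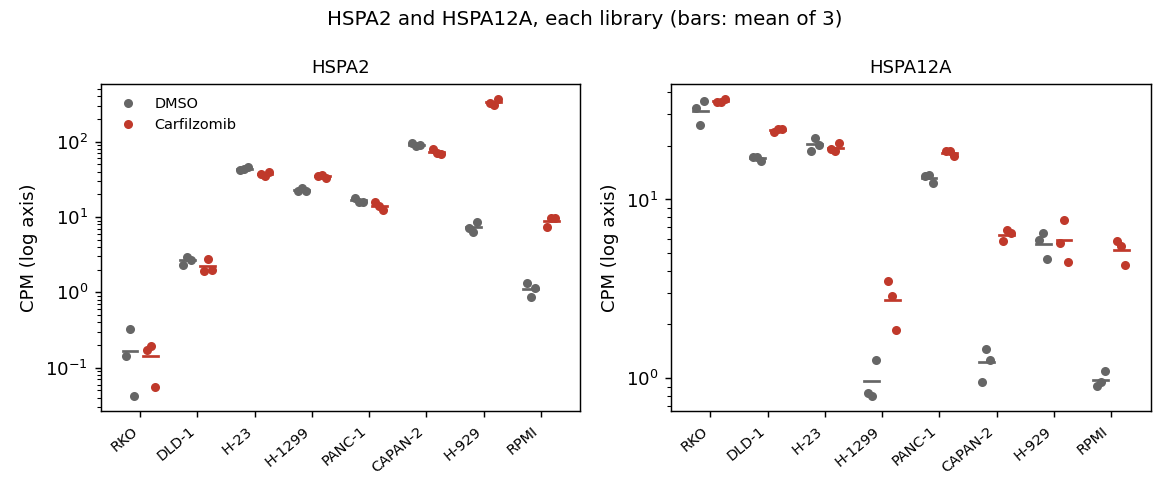
CPM of HSPA2 (left) and HSPA12A (right) in each library on log axes, with DMSO in grey, carfilzomib in red and a bar at the mean of 3 libraries. HSPA2 rises from about the middle of its range to its top in H-929, while HSPA12A is apart between treatments in RPMI, CAPAN-2 and H-1299 and overlaps in H-929.

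HSPA13 (chr21:14371115-14383484) was called in every line, higher in 4 and lower in 4. Of the genes tested in at least 7 lines, 46.2% were called higher in 1 line or more and lower in another. In H-929 it went from 148, 158 and 136 CPM in DMSO to 64.2, 53.9 and 48.1 in carfilzomib, a log2 fold change of -1.25 ± 0.10 (adjusted p in edgeR 2.6e-07). In RPMI, the other myeloma line, it went from 186, 169 and 165 to 239, 257 and 235 CPM (0.57 ± 0.063, adjusted p in edgeR 2.7e-06). The myeloma lines thus moved in opposite directions, with no overlap between groups in either.

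CAPAN-2 had the largest rise of HSPA13, from 62.3, 58.3 and 58.4 to 123, 109 and 108 CPM (0.91 ± 0.064), and H-1299 went from 165, 136 and 151 to 241, 239 and 233 (0.73 ± 0.057). H-23 rose by 0.32 ± 0.049 on the log2 scale. The other falls were -0.60 ± 0.053 in DLD-1, -0.35 ± 0.039 in PANC-1 and -0.30 ± 0.065 in RKO. The adjusted p in edgeR of these 6 calls was at most 0.0121, that of RKO, and the RKO call was lost without DMSO replicate 3 (adjusted p 0.0527) and without carfilzomib replicate 2 (0.0553).

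HSPA14 (chr10:14838164-14871741) had the narrowest range of log2 fold changes of the members tested, -0.32 to 0.93. It rose in H-1299 from 75.2, 83.7 and 77.8 to 136, 149 and 145 CPM, a log2 fold change of 0.93 ± 0.055 (adjusted p in edgeR 1.6e-08). It was also higher in CAPAN-2 (0.45 ± 0.060), H-23 (0.18 ± 0.038) and PANC-1 (0.18 ± 0.041), with adjusted p in edgeR of at most 0.0030. H-929 was lower, at 54.9, 61.8 and 56.8 CPM against 78.0, 83.9 and 78.7 (-0.32 ± 0.091, adjusted p in edgeR 0.00933). Restricting the test to genes averaging 50 counts or more ended that call (-0.20, adjusted p 0.0751). RKO (-0.14 ± 0.055), DLD-1 (-0.13 ± 0.048) and RPMI (0.11 ± 0.049) had no call, with adjusted p in edgeR of 0.151, 0.0688 and 0.0567. RPMI was called higher with the same restriction to 50 counts (0.15, adjusted p 0.0135) and with library totals (0.13, adjusted p 0.0395). Another locus that carries the symbol HSPA14 overlaps it in GENCODE, so its level is uncertain.

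Averaged over the 8 lines by the joint edgeR fit, 7 of the 8 members tested were higher and none lower, against 19.8% and 23.9% of all genes, and none was lower at an unadjusted p under 0.05. DESeq2 was not run for the averages, and HSPA1A and HSPA1B count there as 2 members. The mean log2 fold change was 4.60 ± 0.48 (SE) for HSPA6, 4.39 ± 0.85 for HSPA1A and 3.01 ± 0.29 for HSPA1B. It was 1.00 ± 0.15 for HSPA2, 0.93 ± 0.059 for HSPA12A, 0.22 ± 0.029 for HSPA8 and 0.12 ± 0.018 for HSPA14. These 7 had adjusted p of at most 2.4e-05, while HSPA13 had -0.04 ± 0.026 (adjusted p 0.277). RKO had too few counts of HSPA6, HSPA1A and HSPA2 for a test of its own, but it enters their averages. Single lines carried several averages: without H-1299 those of HSPA8 and HSPA14 fell to 0.04 (adjusted p 0.304) and 0.01 (0.768), and without H-929 that of HSPA2 was 0.36. The HSPA1A average lost its call without replicate 2 of each group (4.23, adjusted p 0.335).

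The error of these averages is the spread between replicates. Taking the 8 lines as units in limma, no member passed the adjusted threshold, and 4 of the 8 had an unadjusted p under 0.05. The effect of carfilzomib differed between lines for all 8 members tested, as it did for 67.7% of all genes. HSPA2 had the highest F of the members, 326, followed by HSPA8 at 137 and HSPA13 at 107.

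Inducible and constitutive members were set side by side per kilobase of exon, as counts of an inducible gene relative to HSPA8 in the same library. Exon length is that of all annotated exons merged, 4849 bases for HSPA8, whose longest transcript has 2463. For HSPA6 both lengths are 2371, so percentages by transcript length would be lower. In plain counts, the sum was 6.33% to 7.61% of HSPA8 in the carfilzomib libraries of RPMI. In DMSO, the sum of HSPA1A and HSPA1B was between 0.0195% and 1.19% of HSPA8 and HSPA6 between 0.0115% and 0.495%. After carfilzomib the sum reached 12.3% to 14.7% of HSPA8 in RPMI, 8.64% to 13.1% in H-929 and 3.88% to 11.7% in H-1299. HSPA6 reached 10.6% to 14.9% in H-929, 8.30% to 14.5% in RPMI, 3.66% to 4.71% in CAPAN-2, 2.14% to 2.35% in H-23 and 1.35% to 1.69% in H-1299. In every library HSPA8 therefore remained the more abundant transcript on this scale, with the level of HSPA1A and HSPA1B uncertain as described.

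Among the 6 members with a single row, HSPA8 made up a median of 87.5% of the counts per kilobase over the DMSO libraries (80.4% in RKO to 93.6% in H-1299). After carfilzomib the median was 84.3%, and RKO was lowest at 65.0%. In RKO the counts of HSPA14 made up to 22.6% and those of HSPA13 up to 9.99% of this family total after carfilzomib, against at most 12.6% and 8.17% in the DMSO libraries of any line. HSPA6 had its largest part in H-929, at 12.2%. These shares rest on the same merged exon lengths, which for HSPA8 and HSPA12A are far above the longest transcript, so both genes are understated.

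The patterns of change over the 8 lines were also compared between members, as a description of points that share libraries within each line. Pearson's r with the sum of HSPA1A and HSPA1B was 0.925 for HSPA6, 0.889 for HSPA8 and 0.858 for HSPA2. It was 0.350 for HSPA12A, -0.02 for HSPA13 and -0.03 for HSPA14. Every r here takes in RKO, where HSPA6 and HSPA2 had too few counts for a test. The share of all genes that reach such values was not computed, so these r have no background. Among 14014 genes, the 3 whose 8 log2 fold changes were most like those of the sum were TMEM217 (r = 0.987), SNHG5 (0.984) and TUFT1 (0.974). For HSPA6 they were GCC1 (0.988), CIDECP1 (0.982) and UNKL (0.982). For HSPA8 they were HSPH1 (0.981), CLK3 (0.980) and DEDD2 (0.979), and HSPH1 is itself an exchange factor of HSP70.

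The partners of HSP70 were examined in lists of J-domain proteins, exchange factors, other partners, heat shock factors and HSP70 genes of other compartments. On average over the lines, 6 of 9 J-domain genes were higher by edgeR and 0 lower (1 at an unadjusted p under 0.05), with a median log2 fold change of 0.22 against 0.02 over all genes, of which 19.8% were higher and 23.9% lower. DNAJB1, a main stress-inducible J-domain partner, averaged 1.10 ± 0.027 (SE), higher in 5 lines and lower in 2, and DNAJB4 0.83 ± 0.033, while DNAJA2 had the lowest average, -0.05 ± 0.024. Of 9 exchange factors, 4 were higher and 2 lower, the latter near the share of all genes, with a median of 0.04. They were led by BAG3 (1.28 ± 0.032) and HSPH1 (0.55 ± 0.029), and BAG5 was lowest (-0.14 ± 0.020).

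Of 7 partners and adaptors, 6 were higher and 1 lower with a median of 0.40. CRYAB, a small heat shock protein, averaged 2.01 ± 0.49 with calls in 2 lines. It had enough counts for a test only in RPMI (6.39), DLD-1 (2.20), PANC-1 (0.82) and CAPAN-2 (0.70). Its average also takes in the lines with too few counts. HSP90AA1, the inducible HSP90 gene, averaged 0.67 ± 0.030. STUB1, which encodes the ubiquitin ligase CHIP, fell by 0.26 on the log2 scale. Heat shock factors HSF2 (0.30 ± 0.035) and HSF4 (0.29 ± 0.048) were both higher. HSF1 has 2 rows in the deposited counts. No row under its plain symbol entered a fit, and rows with a suffix were not examined. Of the HSP70 genes of other compartments, HYOU1 (1.46 ± 0.31), HSPA5 (0.32 ± 0.032) and HSPA9 (0.07 ± 0.017) were all higher on average over the lines. By line, HSPA9 was called higher in 3 and lower in 4, HSPA5 higher in 4 and lower in 2, and HYOU1 higher in 5 and lower in 0. HYOU1 has 2 rows in the deposited counts. Its values here are those of the row without a suffix alone and may cover part of its reads, so they are uncertain.

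The number of partners called differed from line to line. Of the 9 J-domain genes, 4 were lower in RKO and 3 in DLD-1, against 5.28% and 12.1% of all genes, and in edgeR 0 were higher in either (0 and 2 at an unadjusted p under 0.05). H-929 had 5 higher and 2 lower of 8 tested, against 26.2% and 26.6%. H-1299 had 7 of 9 higher and CAPAN-2 had 8, against 29.8% and 25.7%. Exchange factors were divided in another way. H-929 had 4 of 9 lower, against 26.6% of all genes, and RKO, DLD-1 and RPMI had 3 each, the last near its background of 32.2%. PANC-1, where HSPA8 also fell, had 3 of 9 J-domain genes and 6 of 9 exchange factors higher, against 20.5% of all genes. HSPH1 was lower in RKO and DLD-1, at -0.71 and -0.49 on the log2 scale, and higher in PANC-1, at 0.18. Library totals in place of TMM scaling moved the median of all genes by -0.11 on the log2 scale in H-1299, and every member there stayed higher.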

How the data were processed

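RNA was sequenced from stranded total RNA libraries of 3 biological replicates per group, per the labels' protocols. The authors deposited 1 table of raw read counts per gene for 48 libraries. The submitters' processing notes name bcl2fastq 2.19, FastQC, Trimmomatic, HISAT2, DESeq2 and the build hg38. The counting program, the annotation and the use of strand are not given in the sources used here.

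The rows of HSPA1A were summed to 1 row and those of HSPA1B likewise, and all other rows stayed as deposited. Each line was fitted on its own 6 libraries over the whole table using edgeR 4.0.16 under R 4.3.3 (quasi-likelihood F test, TMM scaling, filterByExpr), with Benjamini-Hochberg adjustment over all genes tested and a threshold of 0.05. A second table, with HSPA1A and HSPA1B as 1 row, was fitted in the same way. A joint fit of the 48 libraries with 16 groups gave averages over lines, differences between lines and differences between DMSO levels, for 22303 genes. Alternatives used DESeq2 1.42.0, limma 3.58.1 and the other settings of the closing section. Code was tested on simulated data.

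Gene positions and exon lengths came from GENCODE release 29 and promoters from RefSeq (GRCh38.p14). No pair of replicates agreed within sampling noise (lowest chi-square divided by its degrees of freedom 3.33 over 48 pairs), so each library counts as a sample. Counting error is set by totals of 9.12 to 64.4 M, and counts need not be independent molecules.

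The text names every member. Of each list it names the 2 genes with the highest and the 1 with the lowest average, and for the sum, HSPA6 and HSPA8 the 3 genes with the most similar changes among single-row genes averaging 50 counts or more. Members and lists were chosen with earlier results of these data known.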

Additional observations from a re-analysis of the deposited data

Results flagged for a closer look

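The effect of carfilzomib differed between the 8 lines for each of the 8 members tested and for the sum of HSPA1A and HSPA1B, by the F test on the difference itself in the joint edgeR fit. The F value was 326 for HSPA2, where H-929 rose and CAPAN-2 fell, and 137 for HSPA8, where H-1299 rose and RKO fell. HSPA13 had an F of 107, with the myeloma lines H-929 and RPMI called in opposite directions. HSPA6 had an F of 85.3, the sum of HSPA1A and HSPA1B 61.5, HSPA14 60.1, HSPA1B 52.3, HSPA12A 33.2 and HSPA1A 12.3. The adjusted p in edgeR was at most 4.6e-08 for all of them. Such differences were common, at 67.7% of all genes tested.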

How the results depend on the processing

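Of 966 values recomputed under another setting, 939 kept their direction and their side of the threshold (counts of members stayed within 1.5 times), as did 589 of 603 without 1 library or replicate number and 232 of 248 without 1 line. A member that was no longer tested under a setting gave no value and is not among these, so a call lost in that way shows only in the counts of members. Under the replicate block, PANC-1 gave 0.049 for HSPA1B (adjusted p 0.880) and 0.016 for the sum (0.967), where both were below 0 without it, and 3 members instead of 2 were lower, with HSPA2 added (adjusted p 0.0211). It ended no member's call in any line, and it made the DMSO level of HSPA1A differ between lines (adjusted p 0.00276). HSPA2 in PANC-1 was also called lower under 3 other settings and without 1 library, and HSPA14 in RPMI higher under 2 settings. Replicate numbers were not taken as pairs in the main fits, since no line had correlations above 0.1 for all 3 numbers. Every sample of PANC-1 and RKO nevertheless correlated best with its own number. In PANC-1 these correlations were 0.075 to 0.091, so whether its samples are paired is not settled. Rows without a suffix alone left 3 members higher in H-23, and 1 fit of all libraries left 0 lower there in edgeR (HSPA2, adjusted p 0.0592). In other lines, rows without a suffix could also lower the count of members higher, but it stayed within 1.5 times. A mean of at least 50 counts left 1 member lower in H-929. With a pseudocount of 5, the log2 ratio to HSPA8 changed by 7.97 for the sum in H-929 (8.62 with 0.5) and by 5.39 for HSPA6 in CAPAN-2 (5.58).

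With lines as units in limma, the sum averaged 3.46 (adjusted p 0.317) and 0 members were higher, 4 of them at an unadjusted p under 0.05. The average of HSPA13 was 0.00061 without RKO, 0.044 without DLD-1, 0.0089 without PANC-1 and 0.16 without H-929 (adjusted p 3.6e-07), and it was called lower, as 1 member, without H-23, H-1299, CAPAN-2 or RPMI. Without 1 library, the sum in PANC-1 ranged from -0.48 to 0.59, HSPA1B from -0.30 to 0.47 and HSPA1A from -1.90 to 3.15 (adjusted p 0.0209 without DMSO replicate 1). Members lower in RKO ranged from 1 to 2, HSPA8 in H-23 from -0.078 to 0.0034, HSPA12A in H-23 from -0.099 to 0.026 and in H-929 from -0.027 to 0.36. The cause of these changes was not tested. Low counts limit the comparison of HSPA6, HSPA2 and HSPA1A in RKO and of HSPA1L in every line. Whether the rows of HSPA1A and HSPA1B hold all of their reads was not tested.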
